A study of Mus musculus with 8 samples.

Results

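The genes described here are the nuclear-encoded subunits of respiratory complexes I, II and III and of ATP synthase (complex V), followed in whole mouse ventricle from postnatal day 3 to postnatal day 24. They were chosen by symbol alone: every gene whose name starts with Nduf and a subunit letter and number, is 1 of the 4 Sdh subunit genes, or starts with Uqcr or Atp5, and whose normalized count reached 10 in at least 2 libraries. Of 69 such symbols in a table of 21970 genes, 67 passed that minimum: 38 of complex I, 4 of complex II, 8 of complex III and 17 of complex V. The other two, Ndufb11b and a second entry named Atp5o, were 0 in all 8 libraries. The pattern places Ndufa4 and Ndufa4l2 with complex I by name, although the Ndufa4 protein is now counted with cytochrome c oxidase, and it leaves out the ATP synthase inhibitor, which the table names Atpif1.

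The samples were whole ventricles, the lower chambers of the heart, from mice of the inbred laboratory strain C57BL/6J. The 4 groups were postnatal day 3 (P3), P6, P12 and P24, with 2 libraries each, and the labels name no treatment or genetic change. The labels do not say whether the replicates came from separate animals, whether animals were pooled or which sex they were, so each p-value measures only the spread between these libraries. Y-linked genes held 5722 and 2 reads in the P6 libraries, 7182 and 1 at P12, 2 and 5260 at P24, and 4 and 2 at P3. The pairs at P6, P12 and P24 thus came from different animals or pools, whereas at P3 the spread may be technical. Poly(A) RNA was sequenced, and reads in protein-coding genes numbered 23375967 to 28745112 per library.

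Complexes I and II feed electrons from NADH and succinate into the ubiquinone pool of the mitochondrial inner membrane. Complex III passes them on to cytochrome c, and complex V uses the proton gradient to make ATP. Complex II is encoded by nuclear genes alone, whereas complexes I, III and V each combine nuclear subunits, made in the cytoplasm and imported, with subunits made inside the mitochondrion. The heart relies on this machinery for most of its ATP, and around birth the heart muscle turns from glycolysis and lactate towards the oxidation of fatty acids.

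Transcripts of all 4 complexes were higher at P12 and at P24 than at P3. Of the 67 genes, 50 rose at P12 against P3 and none fell, where 11.4% of the 14055 genes tested rose and 13% fell. At P24 against P3, 37 rose and none fell, where 18.7% of all genes tested rose and 18.2% fell. A gene was called changed where its adjusted p was below 0.05 (limma on log2(normalized count + 1), Benjamini-Hochberg adjustment over all 14055 genes), and this scale and these p-values are used throughout. The median change of the 67 was 0.93 on the log2 scale at P12 against P3, with a range of 0.06 to 1.40, and 0.73 at P24 against P3, with a range of 0.09 to 1.20. Over all genes tested the medians were -0.03 and -0.02. All 67 estimates were above 0 in both comparisons, which became 66 and 61 with scaling by library size alone, 66 and 63 with quantile normalization, and 63 and 66 with the length trend described below removed. The counts of called genes rested on single libraries: leaving out 1 of the 8 gave 0 to 65 at P12 against P3 and 4 to 62 at P24 against P3, and with some P3, P12 or P24 libraries left out the share of the 67 was at or below that of all genes.

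The summed level of the 67 genes in FPKM was 15941 and 17165 in P3 and 17455 and 30051 in P6 ventricles. It was 29631 and 32304 in P12 and 26585 and 27213 in P24 ventricles. The deposited FPKM is the normalized count scaled to gene length, not to the read total. Its sum over all genes ran from 295031 in a P3 library to 451111 in a P24 library. In share of reads, the 67 genes held 3.49% and 3.66% at P3 and 3.76% and 5.50% at P6. The shares were 5.64% and 6.17% at P12 and 4.64% and 4.71% at P24. Both P12 libraries and both P24 libraries lay above both P3 libraries, and the P6 libraries lay far apart, the first close to P3 and the second close to P12. In single genes the same order was common: both P12 libraries exceeded both P3 libraries for 66 of the 67, where 35.3% of all genes did, and both P24 libraries exceeded both P3 libraries for 65, against 38.6% of all genes. Ndufv3 overlapped between P12 and P3, and Ndufc2 and Atp5g2 between P24 and P3. In bulk ventricle a higher share of the cells that carry many mitochondria and more subunit RNA per cell cannot be told apart.

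**Figure D1:**
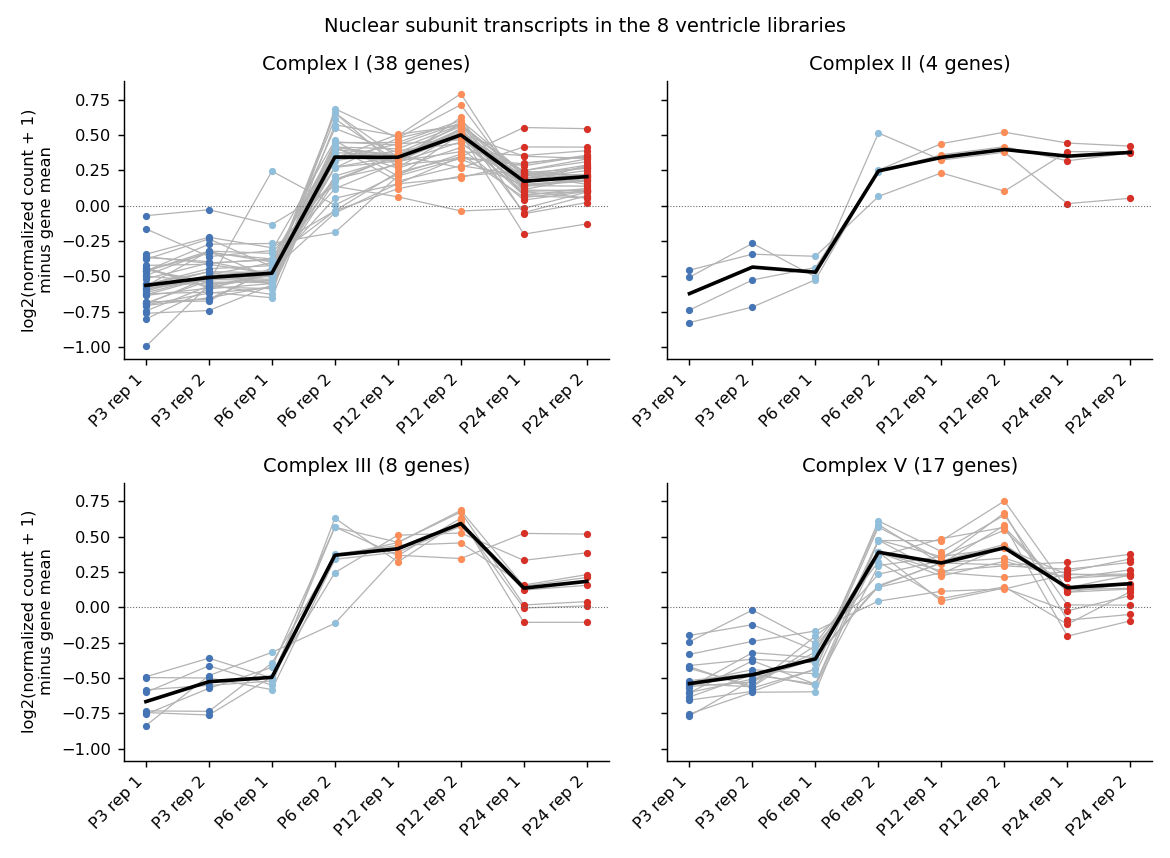
Level of each of the 67 subunit genes in the 8 libraries, by complex. Each grey line is a gene, the vertical axis is log2(normalized count + 1) minus the gene's mean over the libraries, and the black line is the median of the complex. P3 and the first P6 library lie low, the second P6 library and both P12 libraries lie high, and P24 lies between for most genes of complexes I, III and V.

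No single step between neighbouring stages gave a called gene among the 67. At P6 against P3 the count was 0, where 0.655% of all genes rose and 0.185% fell, and 19 of the 67 had an unadjusted p below 0.05. At P12 against P6 it was 0, where 0.996% rose and 1.26% fell, and 16 had an unadjusted p below 0.05. The share of all genes with such an unadjusted p was not computed, so the 19 and 16 show no excess by themselves. DESeq2 on recovered read counts called 2 of the 67 higher in each of these steps, or 2.99%, where it called 2.21% of all genes higher at P6 against P3 and 2.74% at P12 against P6, and edgeR called 0. The estimate was above 0 for all 67 in both steps, with medians of 0.47 and 0.49, while quantile normalization left 65 and 66 above 0, scaling by library size alone 66 and 65, and removal of the length trend 64 and 63. Both P6 libraries exceeded both P3 libraries for 33 genes, against 19% of all genes, and both P12 libraries exceeded both P6 libraries for 34, against 20.2% of all genes.

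The P6 libraries lay near opposite ends of the range from P3 to P12. Among the 61 members that differed by at least 0.5 (log2) between P12 and P3, the first P6 library lay at a median of 7.32% of the way between the P3 and P12 means, and the second at 91.2%. The first was nearer to P3 for 66 of the 67 genes, and the second was nearer to P12 for 66 of the 67. The median difference between the P6 replicates was 0.81 for these genes, against 0.09, 0.14 and 0.04 between the replicates at P3, P12 and P24. Over all genes the median absolute difference between replicates was 0.39 at P6, against 0.154, 0.146 and 0.118 at P3, P12 and P24. Ndufa4l2, a relative of Ndufa4 that is induced by low oxygen, was the 1 gene that was not higher in the second P6 library.

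Fits without P6 libraries moved these counts. Without both, 65 of the 67 rose at P12 against P3 (23.2% of all genes) and 62 at P24 against P3 (27.9% of all genes). Without the first P6 library, 63 were higher at P6 than at P3 (16.3% of all genes) and 1, Ndufa10, was higher at P12 than at P6 (2.6% of all genes). Without the second, 1 was higher at P6 than at P3 (Ndufa4l2; 4.35% of all genes), and 64 were higher at P12 than at P6 (18.6% of all genes). Leaving out a P3 or P24 library lowered the P24 against P3 count to about the share of all genes or less. Without the first P3 library 5 of the 67 rose (7.46%, against 11.6% of all genes), and without the second 9 did (13.4%, against 12% of all genes). Without the first P24 library 7 rose (10.4%, against 10.5% of all genes), and without the second 4 did (5.97%, against 10.8% of all genes). Without the first or the second P12 library it was 23 (34.3%, against 15.7% and 15.8% of all genes), and with scaling by library size alone 12 (17.9%, against 10.8% of all genes).

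The P12 against P3 count was 0 without the first P3 library (3.61% of all genes) and 6 without the second (8.96%, against 4.58% of all genes). It was 1 without the first or the second P12 library (1.49%, against 2.23% and 3.62% of all genes). Without the first P24 library it was 27 (40.3%, against 7.46% of all genes), and without the second 28 (41.8%, against 7.48% of all genes). The estimates kept their direction in these fits, with all 67 above 0 in both comparisons except at P24 against P3 without the second P3 library, where 66 were. Ndufs7, Sdhb, Uqcrc1 and Uqcrfs1 were called higher at P24 than at P3 in every one of the 8 fits that left out 1 library, and no gene was in every such fit for P12 against P3.

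At P24 against P12, none of the 67 was called in the fit of all 8 libraries, and none had an unadjusted p below 0.05, where 8.2% of all genes rose and 8.14% fell. DESeq2 and edgeR on recovered reads also called 0. The estimate was below 0 for 53 of the 67, with a median of -0.21 that was -0.42 with scaling by library size alone, -0.30 with quantile normalization and -0.03 with the length trend removed, and both P24 libraries were lower than both P12 libraries for 47 genes, against 35.9% of all genes. For 9 genes both P24 libraries were higher, against 40.2% of all genes: Ndufs1, Ndufs7, Ndufv1, Ndufa8, Sdha, Uqcrc1, Atp5a1, Atp5g1 and Atp5g3. Without both P6 libraries, 31 fell at P24 against P12, where 19.4% of all genes did, and 1, Ndufs7, rose, where 23.4% of all genes did. The estimates of that fit were lowest for Uqcr10 (-0.60), Atp5mpl (-0.59) and Atp5md (-0.57).

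Since the members moved together, their promoter windows were read for letters bound by known regulators of mitochondrial genes. RefSeq windows of 250 bases before and 50 bases after an annotated start (assembly GRCm38.p6) were at hand for 56 of the 67 genes, 61 windows in all. The letters of the NRF1 motif, GCGCA and GCGC with any 1 base between them, searched on both strands, were in 27.9% of these windows, against 4.60% of all 32851 windows and 8.95% of windows of genes tested here. They occurred in 16 genes, 12 of them wholly before the start, and 8 of the 16 were among the genes that rose at P24 against P3, as were 29 of the 56 genes with a window. The YY1 letters AAGATGGCG were in 11.5% of the windows against 1.40% of all, and TGACGTCA, bound by CREB, in 6.56% against 1.79%. The estrogen-related receptor letters AAGGTCA were in 13.1% against 4.72%, and the longer TCAAGGTCA, which contains it, in 3.28% against 0.423%. The ETS core CCGGAA was in 37.7% against 14.9%, the GABP letters CCGGAAGT, which contain it, in 6.56% against 3.89%, and the Sp1 letters GGGCGG in 37.7% against 35.7%. Against windows of genes tested here, GGGCGG (60.2%) and CCGGAAGT (7.28%) were more frequent than in the members, and CCGGAA was at 25.1%. In windows of genes tested, AAGATGGCG was at 2.66%, TGACGTCA at 2.82%, AAGGTCA at 3.24% and TCAAGGTCA at 0.261%. TGACGTCA was in 4 of the 61 member windows and TCAAGGTCA in 2. A match is a description of the letters and shows no binding.

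Stretches around the NRF1 letters are shown for 5 genes that rose at P24 against P3, so that the copies can be compared. Capitals mark the match in either orientation, and each is read 5′ to 3′ on the strand of the gene, before the annotated start.
Atp5k, chr5:108434425-108434464, minus strand: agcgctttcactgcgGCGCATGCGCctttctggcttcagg
Ndufs5, chr4:123718260-123718299, minus strand: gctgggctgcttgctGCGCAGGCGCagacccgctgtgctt
Ndufs6, chr13:73328483-73328513, minus strand: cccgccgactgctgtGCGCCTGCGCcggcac
Ndufa8, chr2:36049344-36049383, minus strand: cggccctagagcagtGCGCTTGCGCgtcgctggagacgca
Sdha, chr13:74350314-74350353, minus strand: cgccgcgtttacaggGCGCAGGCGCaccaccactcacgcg
Sdha, chr13:74350271-74350310, minus strand: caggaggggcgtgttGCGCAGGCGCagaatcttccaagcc
Sdha, chr13:74350241-74350265, minus strand: cccgcgcgactcggtGCGCAAGCGC
Sdha, the succinate-oxidizing subunit, and Ndufb4, whose stretches are not shown, each had 3 copies before the start. Their P24 against P3 differences were 0.78 and 0.43. The same letters stood before genes that did not pass the test at P24, 3 of which follow.
Atp5g2, chr15:102671065-102671104, minus strand: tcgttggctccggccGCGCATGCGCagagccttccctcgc
Sdhd, chr9:50603904-50603943, minus strand: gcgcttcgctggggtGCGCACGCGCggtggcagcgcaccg
Ndufa11, chr17:56717687-56717726, plus strand: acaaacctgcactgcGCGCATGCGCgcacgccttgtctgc

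Longer windows are shown for Uqcrfs1 and Ndufs7, called higher at P24 in every fit with 1 library left out, and for Ndufv3, whose level stayed within a narrow band. Each is the 250 bases before the annotated start in RefSeq, with the ETS core CCGGAA (or its reverse complement) and the CREB letters TGACGTCA in capitals.
Uqcrfs1, chr13:30545317-30545566, minus strand: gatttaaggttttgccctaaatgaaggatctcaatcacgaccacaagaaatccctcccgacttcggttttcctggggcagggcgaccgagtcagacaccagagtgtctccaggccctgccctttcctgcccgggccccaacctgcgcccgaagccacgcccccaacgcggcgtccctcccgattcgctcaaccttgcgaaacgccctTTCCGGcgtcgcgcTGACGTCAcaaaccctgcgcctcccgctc
Ndufs7, chr10:80249199-80249448, plus strand: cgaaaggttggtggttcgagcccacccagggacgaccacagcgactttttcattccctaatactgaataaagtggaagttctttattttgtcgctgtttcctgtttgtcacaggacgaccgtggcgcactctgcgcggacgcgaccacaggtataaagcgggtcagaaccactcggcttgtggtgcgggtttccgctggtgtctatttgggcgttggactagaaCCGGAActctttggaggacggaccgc
Ndufv3, chr17:31519865-31520114, plus strand: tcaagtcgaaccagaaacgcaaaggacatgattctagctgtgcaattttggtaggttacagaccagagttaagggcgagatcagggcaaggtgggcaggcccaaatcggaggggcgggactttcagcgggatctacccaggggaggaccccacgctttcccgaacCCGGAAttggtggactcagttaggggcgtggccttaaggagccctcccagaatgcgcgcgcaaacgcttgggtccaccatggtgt
The ETS core occurred in all 3 windows, and the CREB letters were found before the start of Uqcrfs1. None of the 3 windows held the NRF1 letters.

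In complex I, 31 of 38 genes rose at P12 against P3 and 24 of 38 rose at P24 against P3, with median changes of 0.93 and 0.72. Without both P6 libraries, 27.9% of all genes rose at P24 against P3. The P24 count was 36 without both P6 libraries or either of them, 13 without either P12 library, 1 and 5 without the first and the second P3 library, 2 and 1 without the first and the second P24 library, and 5 with scaling by library size alone. As shares these were 34.2% without either P12 library, above the 15.7% and 15.8% of all genes, but 2.63% and 13.2% without a P3 library, against 11.6% and 12% of all genes. They were 5.26% and 2.63% without a P24 library, against 10.5% and 10.8%, and 13.2% with library size alone, against 10.8%. The catalytic arm takes electrons from NADH through a flavin and a chain of iron-sulfur clusters to ubiquinone. Ndufs7 (ENSMUSG00000020153), whose protein holds the last cluster before ubiquinone, had normalized counts of 5766 and 6159 in P3, 6322 and 8373 in P6, 9675 and 11026 in P12, and 12737 and 12664 in P24 ventricles. Both P24 libraries were the highest of the 8, and its change was 1.09 ± 0.17 at P24 against P3 (adjusted p = 0.00112), the largest of complex I. Ndufs1, which encodes the largest iron-sulfur subunit, had 16722 and 18016 in P3, 18115 and 28883 in P6, 32809.6 and 30857 in P12, and 34180.3 and 34138 in P24 ventricles. P12 and P24 were both above P3 in every library, and the change was 0.98 ± 0.22 at P24 against P3 (adjusted p = 0.0077).

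Ndufs3, a core subunit of the ubiquinone-binding module, had normalized counts of 4618 and 5263 in P3, 5288 and 9043 in P6, 9315 and 9761 in P12, and 9578 and 9807 in P24 ventricles. Its groups did not overlap between P24 and P3, and it changed by 0.98 ± 0.23 at P24 against P3 (adjusted p = 0.00967). Ndufs8, another core gene of that module, rose by 1.20 ± 0.25 at P12 against P3 (adjusted p = 0.012) and 0.91 ± 0.25 at P24 against P3 (adjusted p = 0.0207). Ndufv1, which carries the flavin site where NADH is oxidized, rose by 0.63 ± 0.19 at P24 against P3 (adjusted p = 0.027), and its P12 against P3 difference of 0.48 ± 0.19 did not pass the test (adjusted p = 0.0879). Its neighbour Ndufv2 had a rise of 0.94 ± 0.27 at P12 against P3 (adjusted p = 0.0358) and a P24 difference of 0.69 ± 0.27 that did not pass (adjusted p = 0.0752). Whether the pair differ from each other was not tested.

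Among accessory subunits, which surround the core and hold the complex together, Ndufb9 had the largest P24 change. Its normalized counts were 10065 and 11672 in P3, 11979 and 23104 in P6, 22505 and 24955 in P12, and 22369 and 22133 in P24 ventricles, and the change was 1.04 ± 0.27 at P24 against P3 (adjusted p = 0.016). Ndufb2 and Ndufb1, small subunits of the membrane arm, had the largest P12 changes, at 1.40 ± 0.31 and 1.38 ± 0.36 (adjusted p = 0.0138 and 0.0253). At P24 against P3 neither passed the test, with differences of 0.86 ± 0.31 and 0.94 ± 0.36 (adjusted p = 0.0554 and 0.0696). Ndufs4 and Ndufs6, accessory subunits of the NADH-oxidizing arm, rose in both comparisons, by 1.20 ± 0.28 and 1.00 ± 0.25 at P12 and by 0.90 ± 0.28 and 0.76 ± 0.25 at P24 against P3.

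Ndufv3, an accessory subunit of the same arm, stood at the other end. It had normalized counts of 6451 and 6640.4 in P3, 6174 and 7451 in P6, 7076 and 6601 in P12, and 6685 and 7243 in P24 ventricles. All 4 stages lay within a narrow band, and its difference was 0.09 ± 0.15 at P24 against P3 (adjusted p = 0.672). Ndufc2, a membrane-arm subunit, had 5708 and 4983 in P3, 5132 and 8809 in P6, 7393 and 9095 in P12, and 5563 and 5849 in P24 ventricles, high in the second P6 library and at P12 but not at P24. Its difference was 0.10 ± 0.24 at P24 against P3 (adjusted p = 0.783), and it was below 0 with library-size scaling (-0.25), quantile normalization (-0.01) and the length trend removed (-0.09). Ndufa11, a membrane subunit, rose by 0.85 ± 0.25 at P12 against P3 (adjusted p = 0.0381) and differed by 0.36 ± 0.25 at P24 against P3 without passing the test (adjusted p = 0.285).

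In complex II, 2 of 4 genes rose at P12 against P3 and 3 of 4 rose at P24 against P3. The P24 count was 4 without both P6 libraries, where 27.9% of all genes rose. It was lower without any 1 of the P3 or P24 libraries. Sdhb (ENSMUSG00000009863), the iron-sulfur subunit, had normalized counts of 13068 and 14102 in P3, 16119 and 27599.6 in P6, 31432 and 33252 in P12, and 31530.3 and 31055 in P24 ventricles. The second P6 library and all P12 and P24 libraries lay well above P3 and the first P6 library. Its change was 1.25 ± 0.24 at P12 against P3 (adjusted p = 0.00753) and 1.20 ± 0.24 at P24 against P3 (adjusted p = 0.00396), the largest P24 change among the 67. Sdhc, a membrane anchor that helps bind ubiquinone and haem, rose by 1.02 ± 0.22 at P12 against P3 (adjusted p = 0.0119) and 0.98 ± 0.22 at P24 against P3 (adjusted p = 0.00714).

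Sdha, the flavoprotein that oxidizes succinate, with the NRF1 letters repeated before its start, had normalized counts of 33903 and 36669 in P3, 36288 and 48681 in P6, 54632 and 49947 in P12, and 60652 and 60581 in P24 ventricles. Both P24 libraries exceeded both P12 libraries. It rose by 0.78 ± 0.19 at P24 against P3 (adjusted p = 0.0121), while its P12 against P3 difference of 0.57 ± 0.19 did not pass (adjusted p = 0.0603). Sdhd, the other membrane anchor, had 13086 and 15443 in P3, 13105 and 26544 in P6, 23246 and 24157 in P12, and 18768 and 19274 in P24 ventricles. It was highest in the second P6 library, and neither 0.74 ± 0.29 at P12 against P3 (adjusted p = 0.0887) nor 0.42 ± 0.29 at P24 against P3 (adjusted p = 0.283) passed the test.

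In complex III, 6 of 8 genes rose at P12 against P3 and 4 of 8 rose at P24 against P3. The P24 count was 8 without both P6 libraries, where 27.9% of all genes rose. It was lower without any 1 of the P3 or P24 libraries, and 2 with scaling by library size alone, where 10.8% of all genes rose. Uqcrc1 (ENSMUSG00000025651), a core subunit on the matrix side, had normalized counts of 17098 and 21852 in P3, 24485 and 28230.5 in P6, 39425 and 38804 in P12, and 43890.2 and 43742 in P24 ventricles. Both P24 libraries were the highest of the 8. The change of 1.18 ± 0.18 at P24 against P3 (adjusted p = 0.000979) had the lowest adjusted p of the 67, and at P12 against P3 the change was 1.02 ± 0.18 (adjusted p = 0.0056). Uqcrfs1, the Rieske iron-sulfur protein that hands electrons to cytochrome c1, with the CREB letters in its promoter window, had 11314 and 11177 in P3, 13488 and 22478 in P6, 27006 and 27295 in P12, and 23872 and 24774 in P24 ventricles. It rose by 1.27 ± 0.22 at P12 against P3 (adjusted p = 0.00579) and 1.11 ± 0.22 at P24 against P3 (adjusted p = 0.00461).

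Of the small subunits of complex III, some that passed at P12 did not pass at P24. Uqcrq had normalized counts of 11145 and 11118 in P3, 14091 and 23788 in P6, 25450.4 and 29804 in P12, and 20548 and 21447 in P24 ventricles, and rose by 1.31 ± 0.23 at P12 against P3 (adjusted p = 0.00613) and 0.92 ± 0.23 at P24 against P3 (adjusted p = 0.0144). Uqcr11 rose by 1.23 ± 0.28 at P12 against P3 (adjusted p = 0.0159) but did not pass at P24 (difference 0.69 ± 0.28, adjusted p = 0.0836). Uqcr10, next to the cytochrome c1 and Rieske subunits, had 8376 and 9176 in P3, 8326 and 17469 in P6, 15172 and 18239 in P12, and 10937 and 10943 in P24 ventricles. The P24 libraries stood between P3 and P12, and 0.32 ± 0.30 at P24 against P3 (adjusted p = 0.431) did not pass, nor did 0.92 ± 0.30 at P12 against P3 (adjusted p = 0.0504). Uqcrh, the acidic hinge subunit near cytochrome c1, gave 0.97 ± 0.32 and 0.51 ± 0.32 in the same comparisons, and neither passed (adjusted p = 0.0573 and 0.252). The core subunit Uqcrc2 rose by 1.02 ± 0.26 at P12 against P3 (adjusted p = 0.0247) and 0.76 ± 0.26 at P24 against P3 (adjusted p = 0.0478).

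In complex V, 11 of 17 genes rose at P12 against P3 and 6 of 17 rose at P24 against P3, with medians of 0.83 and 0.69. Without both P6 libraries, 27.9% of all genes rose at P24 against P3. The P24 count was 14 without both P6 libraries, 1 and 0 without the first and the second P3 library, 1 and 0 without the first and the second P24 library, 2 with scaling by library size alone, and 10 to 12 with the length trend removed, DESeq2 or a Y-linked term. The counts of 0 to 2 were 0% to 11.8% of the 17, where 10.5% to 12% of all genes rose, and DESeq2 called 19.1% of all genes higher. The complex pairs a catalytic head, F1, with a membrane rotor and stator, Fo. Atp5a1, the alpha subunit of F1, had normalized counts of 93365 and 99682 in P3, 111406 and 157687 in P6, 176211 and 174533 in P12, and 176656 and 183893 in P24 ventricles. P12 and P24 exceeded P3 in every library, and the change was 0.90 ± 0.23 at P24 against P3 (adjusted p = 0.014). Atp5b, the beta subunit that carries the catalytic sites, had 122275 and 145088 in P3, 141608 and 200679 in P6, 225537 and 230659 in P12, and 209009.7 and 212515 in P24 ventricles. It rose by 0.78 ± 0.24 at P12 against P3 (adjusted p = 0.048), while 0.66 ± 0.24 at P24 against P3 (adjusted p = 0.0616) did not pass the test and was below 0 under quantile normalization (-0.17). Of the other F1 genes, Atp5d (delta) and Atp5e (epsilon) rose by 0.73 ± 0.18 and 0.78 ± 0.22 at P24 against P3 (adjusted p = 0.0134 and 0.0204). Atp5c1 (gamma) passed in neither comparison, with 0.77 ± 0.28 at P12 and 0.79 ± 0.28 at P24 against P3 (adjusted p = 0.072 and 0.0523).

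The rotor ring is built of subunit c, whose mature protein is the same from each of 3 genes that differ in their import sequences. Atp5g1 had normalized counts of 18672 and 17096 in P3, 21888 and 27795 in P6, 29873 and 29210.5 in P12, and 30001 and 31938 in P24 ventricles, and rose by 0.79 ± 0.17 at P24 against P3 (adjusted p = 0.00632). Atp5g3 rose by 0.52 ± 0.17 at P24 against P3 (adjusted p = 0.0373) but not by a called amount at P12 (difference 0.41 ± 0.17, adjusted p = 0.0999). Atp5g2 had 3512 and 4103 in P3, 3484 and 5198 in P6, 4342 and 4599.8 in P12, and 3826 and 4492 in P24 ventricles. Apart from a high second P6 library its levels were close, and 0.13 ± 0.20 at P24 against P3 (adjusted p = 0.655) did not pass. Per length, in FPKM, Atp5g3 gave 69.3% to 73.3% of the subunit c transcripts in the 8 libraries, Atp5g1 15.7% to 20.7% and Atp5g2 7.37% to 11.0%, so their order was the same in every library.

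Among the membrane and stator subunits, Atp5l (subunit g) and Atp5k (subunit e), which sit where ATP synthase dimers meet, had the largest P12 changes of complex V, at 1.29 ± 0.30 and 1.17 ± 0.23 (adjusted p = 0.0162 and 0.00845). At P24 against P3, Atp5k rose by 0.76 ± 0.23 (adjusted p = 0.0277) and the Atp5l difference of 0.81 ± 0.30 did not pass (adjusted p = 0.0605). Atp5o, the stalk protein that joins the stator to the head, had normalized counts of 23486 and 24762 in P3, 21822 and 35357 in P6, 27791 and 29646 in P12, and 26496 and 28557 in P24 ventricles. It passed in neither comparison, with 0.25 ± 0.22 at P12 against P3 (adjusted p = 0.427) and 0.19 ± 0.22 at P24 against P3 (adjusted p = 0.542), and the P24 difference was below 0 with library-size scaling (-0.16) and quantile normalization (-0.26). Atp5mpl, a small proteolipid of Fo, had 6235 and 6431 in P3, 6318 and 12448 in P6, 10278 and 12398 in P12, and 7201 and 7762 in P24 ventricles, with P24 close to P3, and 0.24 ± 0.27 at P24 against P3 (adjusted p = 0.529) did not pass. Atpif1, the inhibitor of ATP hydrolysis by the complex, had 6574 and 6981 in P3, 6276 and 10771 in P6, 6257 and 6968 in P12, and 3732 and 3624 in P24 ventricles. Both P24 libraries were the lowest of the 8, and the gene fell by 0.88 ± 0.23 at P24 against P3 (adjusted p = 0.0151), where 18.2% of all genes fell.

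**Figure D2:**
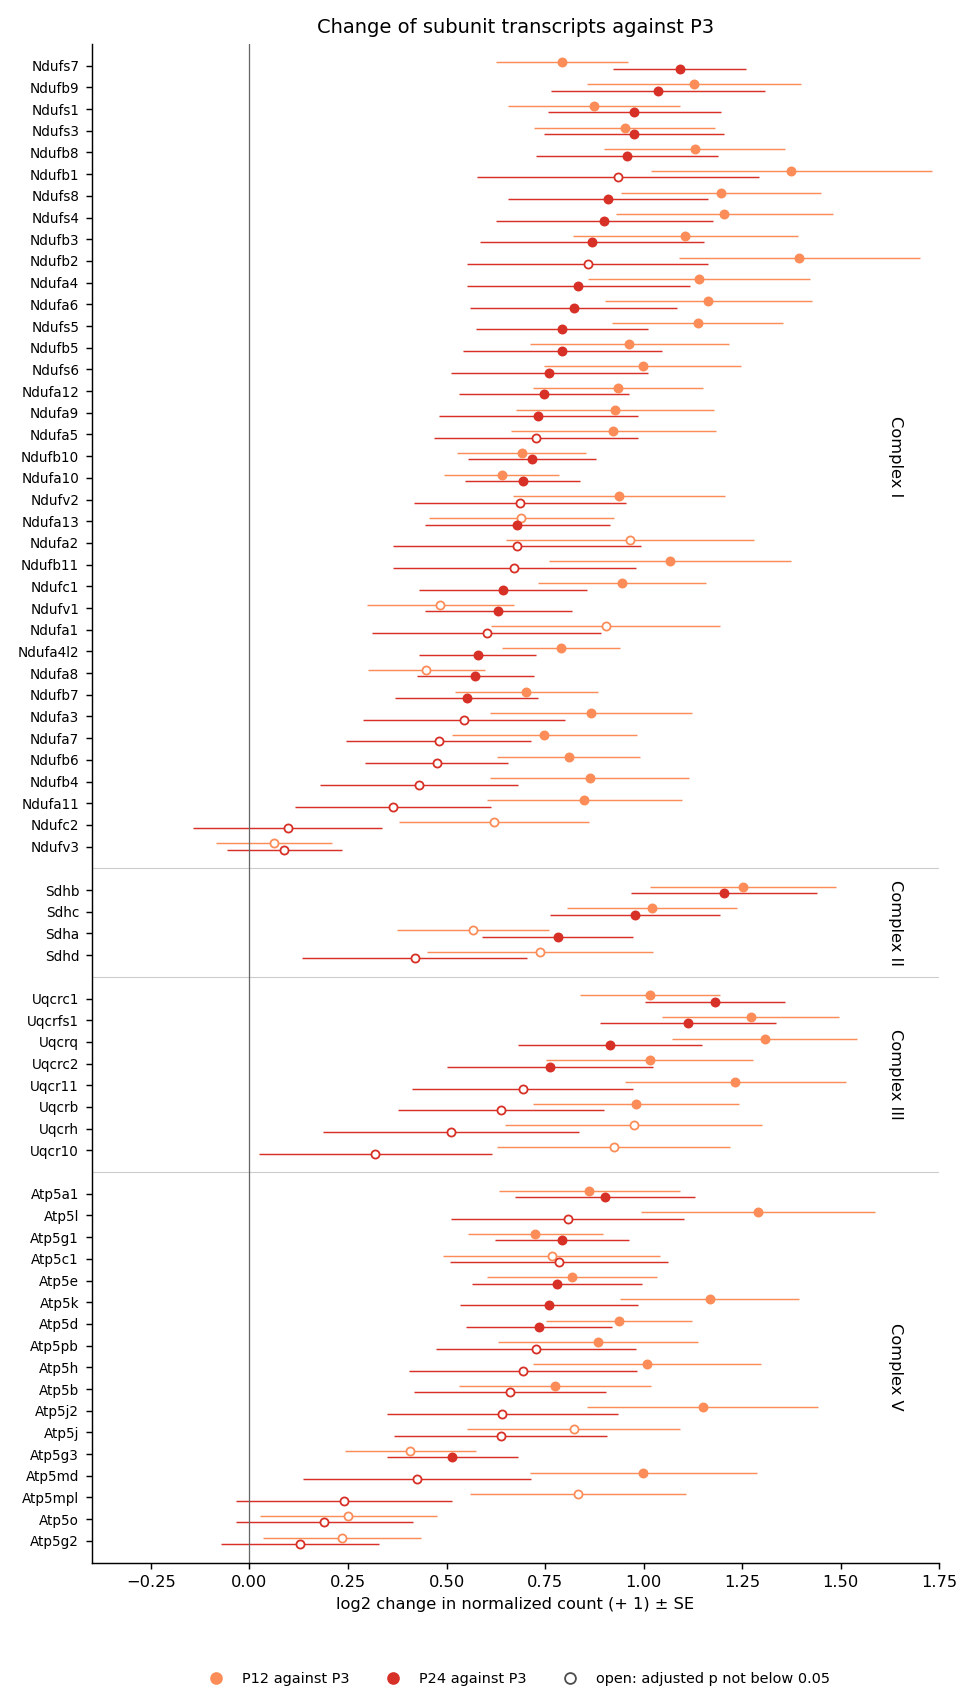
Change of 66 of the 67 subunit genes at P12 and at P24 against P3 on the log2(normalized count + 1) scale, with the standard error of the limma fit, ordered within each complex by the P24 change. Filled points passed an adjusted p of 0.05. Sdhb, Uqcrc1, Uqcrfs1 and Ndufs7 lie furthest to the right at P24, and Ndufv3, Ndufc2, Atp5g2, Atp5o and Atp5mpl lie near 0 at P24.

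Per length, the medians of the complexes kept 1 order at all 4 stages, with complex III highest, then complexes II, V and I. Median FPKM in P3, P6, P12 and P24 ventricles was 130.3, 198, 289.6 and 241 in complex I, and 356, 518, 759.8 and 610.1 in complex III. In the same order it was 197, 289.2, 377 and 328 in complex V, and 261, 358, 484 and 511 in complex II. The highest levels of all were those of Atp5a1, at 2051 ± 58.2 FPKM at P24 against 1098 ± 50.8 at P3 (SD, n = 2 each), and Atp5b, at 1774 ± 20.9 at P24 against 1125 ± 136 at P3. The lowest was Ndufa4l2, at 18.1 ± 0.426 FPKM at P24 against 12.1 ± 0.523 at P3 (SD, n = 2 each). Ndufa4 exceeded it 23.0 to 54.5 times in FPKM, most in the second P6 library and least in the first. Levels of very short genes in FPKM rest on the length the authors assigned to them, and reads shared with near-identical copies, such as Ndufb11b for Ndufb11, make single levels uncertain.

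The relation of level to gene length differed between libraries, also between the P6 replicates, and the subunit genes are short. Their median length, from the ratio of normalized count to FPKM, was 0.402 of that of the median gene tested. Of the 67, 61 were shorter than the median gene and 33 were in the shortest 10%, from Ndufa1 at 0.0935 of the median gene, while Ndufs1 at 1.81 was the longest. Over all genes, the shortest 10% minus the longest 10% (1406 genes each) in log2 value relative to the gene's mean was -0.38 and -0.24 in P3, -0.53 and 0.54 in P6, 0.33 and 0.58 in P12, and -0.13 and -0.15 in P24 ventricles. The libraries in which short genes were relatively high, the second P6 library and both P12 libraries, are the ones in which the subunit genes were highest. The P24 libraries, at -0.13 and -0.15, lay between those of P3 and P12 in this trend. Their subunit medians were 0.15 and 0.21, against -0.57 and -0.51 at P3. The relation of this trend to RNA quality or library preparation was not tested.

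With the length trend removed from each library, 49 of the 67 rose at P12 against P3 (13.9% of all genes) and 48 rose at P24 against P3 (21.6% of all genes). The median changes became 0.61 in both comparisons, against 0.93 and 0.73 before. At P24 against P12 the median became -0.03, with 29 of 67 estimates above 0, and 1 gene, Ndufs7, rose (0.50; 10.1% of all genes rose). The spread of the P6 pair narrowed, with medians relative to the gene means of -0.27 and 0.12, against -0.47 and 0.35 before. By complex, the counts at P24 against P3 with the trend removed were 29 of 38 for complex I, 3 of 4 for complex II, 6 of 8 for complex III and 10 of 17 for complex V.

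**Figure D3:**
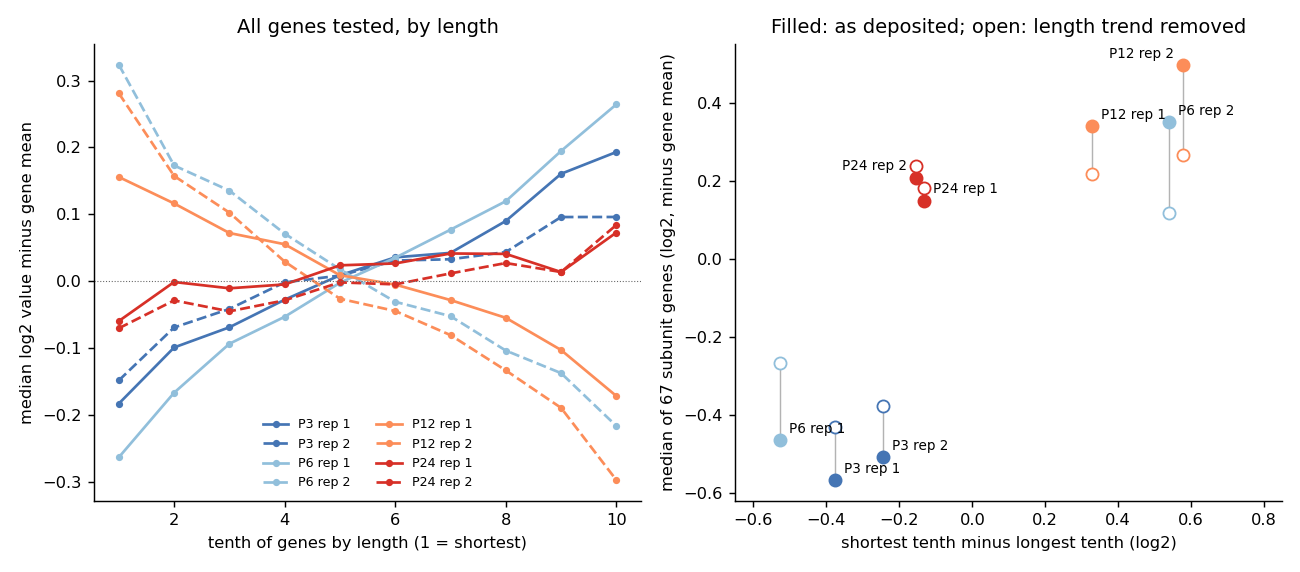
Gene length and level in the 8 libraries. The left panel plots the median log2 value relative to the gene mean for all 14055 genes in 10 bins by length, a line per library, and the right panel plots the median of the 67 subunit genes against the shortest-minus-longest difference, filled as deposited and open with the trend removed. The second P6 library and both P12 libraries slope down with length, and the subunit medians of P12 and P24 stay above those of P3 after the trend is removed.

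Within the 67, length went with the late change more than with the early one. The change at P24 against P12 had a Pearson r of 0.37 and a Spearman rho of 0.42 with log2 length over the 67 genes, which share the same 4 libraries. Its median was -0.30 in the 34 shortest and -0.16 in the 33 longest. At P12 against P3 the corresponding medians were 0.94 and 0.93, with an r of -0.07. The longest genes, by the length the authors assigned, were Ndufs1 (1.81 of the median gene), Atp5l (1.44) and Ndufb2 (1.26). Their P24 against P12 differences were 0.10, -0.48 and -0.54. The part of length in the late change was not tested.

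**Figure D4:**
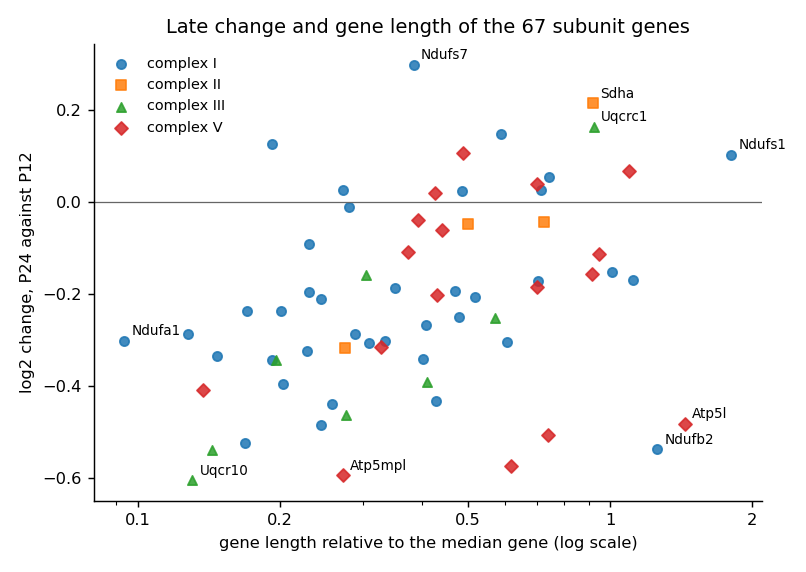
Change at P24 against P12 (log2) of each of the 67 subunit genes against its length relative to the median gene, on a log axis, with a symbol per complex. Most points lie below 0, Uqcr10 lowest at -0.60, and Ndufs7, Sdha, Uqcrc1 and Ndufs1 lie above it.

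The mitochondrially encoded partners of the same complexes were highest at P24. Of 8 measured, 0 rose or fell at P12 against P3 by limma (1 with an unadjusted p below 0.05), and 7 rose at P24 against P3, where 18.7% of all genes did. At P24 against P12, 3 of 8 rose, where 8.2% of all genes did, with a median of 0.85, while the median of the 67 nuclear genes was -0.21. Their summed level in FPKM was 41214 and 45703 in P3, 50839 and 53203 in P6, 57839 and 46949 in P12, and 98204 and 100703 in P24 ventricles, and both P24 libraries were the highest. mt-Nd2, a membrane subunit of complex I, rose by 1.73 ± 0.25 at P24 against P3 (adjusted p = 0.000789), and mt-Atp6, the proton channel subunit of ATP synthase, by 1.58 ± 0.26 at P24 against P3 (adjusted p = 0.00166). The others that rose were mt-Nd1, mt-Nd4, mt-Nd5, mt-Nd6 and mt-Cytb, the last being the cytochrome b of complex III. The difference for mt-Nd3, 0.54 ± 0.41 at P24 against P3 (adjusted p = 0.339), did not pass. Reads shared with nuclear copies make these values uncertain, and the difference between nuclear and mitochondrially encoded genes was not tested.

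Genes for factors that build the complexes without being part of them were measured too. Of 17 assembly factors of complex I, 8 rose at P12 against P3, where 11.4% of all genes did, and 4 (23.5%) at P24 against P3, near the 18.7% of all genes, with medians of 0.64 and 0.43. The 4 were Ecsit (0.85 ± 0.13), Ndufaf1 (0.84 ± 0.20), Tmem126b and Ndufaf6. Of 16 for complexes II, III and V, 7 (43.8%) rose in each comparison, led at P24 by Atpaf1 (1.25 ± 0.19), which helps assemble F1, and Tmem70 (1.12 ± 0.21), needed for ATP synthase assembly. No assembly factor fell. The difference between subunits and factors was not tested.

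Neighbouring parts of the chain gave a mixed picture. Of 16 electron carriers and ubiquinone synthesis genes, 11 rose at P12 (68.8%) and 10 at P24 (62.5%) against P3, where 11.4% and 18.7% of all genes rose, led at P24 by Coq8a (1.67 ± 0.16) and Coq9 (1.39 ± 0.20), both needed to make ubiquinone. Of 16 nuclear subunits of complex IV, 10 rose (62.5%) and 1 fell (6.25%) at P12, and 7 rose (43.8%) and 2 fell (12.5%) at P24, where 13% and 18.2% of all genes fell. The muscle form Cox7a1 rose by 2.39 ± 0.29 at P24 against P3 (adjusted p = 0.000261) and the testis form Cox6b2 fell by 2.67 ± 0.26 (adjusted p = 8.61e-05), so that complex IV held falls as well as rises. Of 78 mitochondrial ribosomal protein genes, 33 rose at P12 (42.3%) and 20 at P24 (25.6%, against 18.7% of all genes), with medians of 0.65 and 0.44. Of 93 genes whose symbols start with Rpl or Rps and a number, 3 rose and 2 fell at P12, and 2 rose and 5 fell at P24. As shares these were below those of all genes, and the medians were 0.27 and -0.29. This group is mainly cytoplasmic ribosomal proteins, but a choice by symbol also admits other genes, such as those of S6 kinases.

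Markers of cell types moved beside these genes in the bulk tissue. Summed FPKM of 9 cardiomyocyte markers was 16773 and 19984 in P3, 15790.1 and 18933 in P6, 18514 and 18499.7 in P12, and 20596 and 22582 in P24 ventricles. Myl2, the regulatory myosin light chain of the ventricle, was at 4519.9 ± 195 FPKM at P24 against 4436 ± 399.9 at P3 (SD, n = 2 each), with a difference that did not pass. None of the 9 rose or fell at P12 against P3 (median -0.02, and 1 with an unadjusted p below 0.05). At P24 against P3, 2 rose (22.2%, near the 18.7% of all genes), the thin-filament gene Tnni3 and the calcium pump regulator Pln. The median of the 9 was then 0.49, with 7 estimates above 0 and 2 below. Summed FPKM of 8 fibroblast markers was 966 and 612 in P3, 876 and 664 in P6, 514 and 521 in P12, and 343 and 346 in P24 ventricles, lowest at P24, and 5 of the 8 fell (62.5%, against 18.2% of all genes) and 1 rose at P24 against P3. Of 7 macrophage markers 6 rose at P24 against P3 (85.7%, against 18.7% of all genes), while the summed FPKM of 5 atrial markers ran from 29.5 in a P12 library to 420.3 in a P3 library. Erythroid markers summed to 661 to 2552 FPKM across libraries. With Y-linked reads as a term in the fit, 61 of the 67 rose at P12 (14.3% of all genes) and 55 at P24 against P3 (18.5% of all genes). The part of cell type shares in the subunit changes was not tested.

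**Figure D5:**
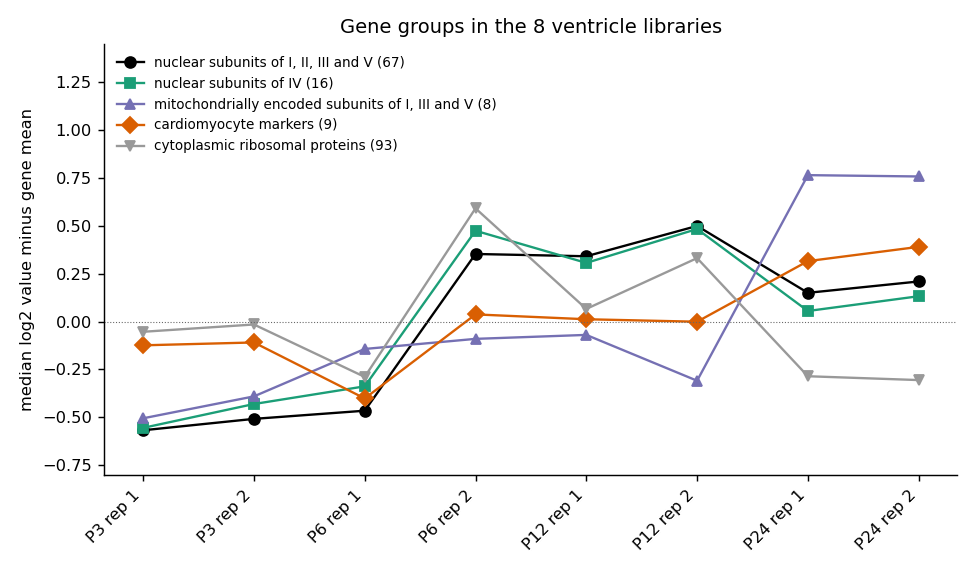
Median log2 value relative to the gene mean of 5 gene groups in the 8 libraries. The group labelled cytoplasmic ribosomal proteins was taken by symbol (Rpl or Rps and a number) and can hold other genes. The nuclear subunits of complexes I, II, III and V and those of complex IV are high in the second P6 library and at P12, the mitochondrially encoded subunits are highest at P24 in both libraries, and the cardiomyocyte markers lie highest at P24.

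The genes outside the set that most resembled its mean profile over the 8 libraries were found by Pearson correlation among 11170 genes with a mean count of at least 100. The 10 closest, with r between 0.992 and 0.997, were Clec2d, Mrps15, Aurkaip1, Cox14, Pdhb, Guk1, Cox11, Anapc16, Malsu1 and Chchd2. Mrps15 encodes a mitochondrial ribosomal protein, Cox14 and Cox11 are assembly factors of complex IV, and Pdhb is a subunit of pyruvate dehydrogenase. The 8 libraries are 4 pairs that share a stage and differ in the length trend above, so r describes these libraries only.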

How the data were processed

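Poly(A) RNA sequencing of 8 whole-ventricle libraries was analysed from 1 table that the authors deposited. The values tested are the authors' deposited signal, which the file headers name as normalized counts of each gene, and FPKM values deposited beside them served for levels per length. The submitters' processing notes list DESeq2 1.32.0, HTSeq 0.11.2, STAR 2.7.3a, Trim Galore 0.6.4 and the assembly GRCm39. The annotation and whether counting used strand are not given in the sources used here. Genes that overlap another gene are therefore uncertain. Each library's values were whole multiples of 1 read (100% of values, tolerance 0.001), which gave the read totals. With 0 reads, a gene's share could reach 1.28e-05% in the library of lowest depth (3 reads of the total), for counting error only. Within a gene, FPKM divided by normalized count was constant, which gave relative gene length.

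Genes with at least 10 in at least 2 libraries were kept (14055), and limma 3.58.1 in R 4.3.3 was fitted to log2(normalized count + 1) of all 8 libraries, with stage as a factor, trended eBayes, 4 residual degrees of freedom and Benjamini-Hochberg adjustment over all genes kept. This scale understates changes of low genes. Alternatives were edgeR 4.0.16 and DESeq2 1.42.0 on the recovered reads, library-size and quantile scaling, no filter and a minimum of 50, pseudocounts of 0.5 and 10, removal of a smooth length trend per library, a replicate block, a Y-linked read term, and fits without the P6 libraries or without each library. On data simulated for P24 against P3, the calls by limma were 48 of 50 genes changed by 2 (log2), 20 of 50 changed by 1, 27 of 50 changed by -1 and 43 of 50 changed by -2, with 6 of 13631 unchanged genes called.

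The members and lists were chosen with earlier results of these data known. Values given in full are those of the catalytic core, the largest and smallest changes at P24 against P3 in each complex, and paralogs, except that some are not reported here; Ndufb1, Ndufb2, Ndufs4, Ndufs6, Atp5k, Uqcr11 and Uqcrh were picked after their values were seen, as was the P12 against P3 comparison of single members. Promoter letters come from RefSeq windows of GRCm38.p6, a different assembly from that of the authors.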

Additional observations from a re-analysis of the deposited data

How the results depend on the processing

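The direction of the 67 genes at P12 and P24 against P3 held for most genes in every alternative run, while the number past the threshold changed. At P24 against P3, 37 became 12 with scaling by library size alone, which also shifted the median gene to -0.36 from -0.02. Relative to the median gene, the members' median was 0.74 in both. That scaling gave 5 in complex I, 2 in complex III and 2 in complex V. Quantile normalization called 27 of the 67 at P24 against P3, where 19.2% of all genes rose. Relative to the median gene, the members' median was then 0.44 at P24 and 0.75 at P12 against P3. The latter was 0.97 in the main fit. Of the 5187 genes called by limma at P24 against P3, 2623 rose and 2564 fell, and by library size alone 1511 rose and 5009 fell. Without both P6 libraries the P24 against P3 count was 62, with 8 in complex III and 14 in complex V, and the P24 against P12 count was 32. In complex V, 6 became 11 with DESeq2, 10 with the length trend removed and 12 with the Y-linked term. DESeq2 called 2 members at P6 against P3 and 2 at P12 against P6, and removal of the length trend called 1 at P24 against P12.

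Leaving out 1 library gave 0 to 65 at P12 against P3, 0 to 64 at P12 against P6, 0 to 33 at P24 against P12, 4 to 62 at P24 against P3 and 0 to 63 at P6 against P3. By complex at P24 against P3 it gave 1 to 36 for I, 1 to 4 for II, 2 to 8 for III and 0 to 14 for V. A lone library was then assumed to vary like the other groups. The short-minus-long difference at P6 against P3, 0.32, became -0.20 to 0.85.

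Replicate numbers are shared between stages, but nothing says that they pair samples, and the correlations of replicate deviations ran from -0.14 to 0.32. With a replicate block the P24 against P3 count was 47, the P12 against P3 count 60 and the P24 against P3 count of complex V 10. Of the 14055 genes tested, 2820 rose at P24 and 1900 at P12 against P3 with the block, and 2623 and 1608 without it. With the replicate block and the length trend removed, complex V had 13, where 3213 of all genes tested rose at P24 against P3. In that fit 1 member each was called at P12 against P6 and at P24 against P12, where 5.91% and 24.4% of all genes were called.

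Some P24 against P3 differences that did not pass the test changed sign. With library size alone these were Atp5g2 (-0.22), Atp5mpl (-0.11), Atp5o (-0.16), Ndufc2 (-0.25), Ndufv3 (-0.26) and Uqcr10 (-0.029), and with quantile normalization Atp5b (-0.17), Atp5o (-0.26), Ndufc2 (-0.0070) and Ndufv3 (-0.025). Ndufc2 was also -0.090 with the length trend removed, with or without the replicate block, and between -0.00104, without the second P3 library, and 0.19, without the first, when 1 library was left out. The causes were not tested, and 2 libraries per stage limit every call.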
